A study of Bombyx mori with 12 samples.

Results

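Of 17072 gene rows measured in the head and thorax of silkworm larvae (Bombyx mori), 35 formed a set whose RNA was highest in the tetramolters of batch 1. The members were chosen by their own values in CPM, which scale a gene's counts to the size of its library. A member had a mean of at least 5 CPM in batch 1 tetramolters, at least 3 times the mean of every other group, with its lowest batch 1 tetramolter library above every other library. Its mean in batch 2 tetramolters also had to stay below 1.4 times that of batch 2 trimolters, and symbols of cuticle protein, ribosomal protein, detoxification and a few other families were left out. The high level in batch 1 tetramolters and the low ratio within batch 2 were therefore set by the choice and are given as a description, with no test.

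The study asked how larvae of the ‘Guangri 3’ strain that molt an additional time differ from those that do not, in 2 rearings. The 12 libraries fell into 4 groups of 3, the tetramolters of batch 1, the tetramolters of batch 2, the trimolters of batch 2 and the trimolters of batch 1. All were ‘Guangri 3’ larvae sampled at the molting stage of the third instar, as pooled head and thorax tissue. The treatment given in the labels was the molting type, tri-molting or tetra-molting, and no other treatment was labelled. One rearing was in spring and the other in a warmer autumn, but the labels did not say which batch was which, so that season, temperature, day length and batch cannot be told apart. No label tied a library to an animal, so p-values rest on the spread between these libraries within groups, pooled over the 4 groups.

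A larval molt is driven by pulses of ecdysteroids, steroid hormones made in the prothoracic glands of the thorax, while juvenile hormone from the corpora allata of the head keeps the molt larval. During the molt the epidermis detaches from the old cuticle, secretes a new one and recovers the sugars of the old chitin. The tissue holds epidermis, muscle, brain, glands and sense organs together, so fewer cells of a type and less RNA per cell cannot be told apart in these libraries.

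The libraries held 13449541 to 15650612 counts. Muscle markers, 8 genes in all, were abundant in every library, and their summed level was 56970 to 58140 CPM in batch 1 tetramolters, 28090 to 33860 CPM in batch 2 tetramolters, 45200 to 54730 CPM in batch 2 trimolters and 27940 to 58860 CPM in batch 1 trimolters. Silk gland markers stayed below 2 CPM in sum in every library. No pair of libraries within a group agreed within sampling noise, so all 12 were counted as separate samples.

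Among the 35 members, 28 were protein-coding genes and 6 were long noncoding RNAs in the RefSeq gene table, and 1 gene ID had no match there. Only 3 carried a gene symbol, namely Dsclp, GlcNAcase2 and NGR-A2, and 2 others had a named synonym, UGT33D4 for LOC732962 and BmPyrexia for LOC101746226. The genes without a name made up 91.4% of the members, against 89% of the 8102 genes with at least 5 CPM in batch 1 tetramolters. These shares are not alike, since the choice left 5 genes with symbols out of the members by family. The 8102 genes still held such families. Long noncoding RNAs made up 17.6% of the matched members and 1.09% of the matched genes at that level.

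Batch 1 tetramolter means ran from 5.24 to 3040 CPM, with a median of 18.6 CPM. The median member was 11 times higher in batch 1 tetramolters than in batch 2 tetramolters, 4.18 times higher than in batch 2 trimolters and 7.48 times higher than in batch 1 trimolters. At least 10-fold differences were seen for 21 members against batch 2 tetramolters, 3 against batch 2 trimolters and 13 against batch 1 trimolters. Batch 2 tetramolters, which share the molting type, held the lowest mean of the 4 groups for 29 members, and batch 1 trimolters held it for the other 6. The next highest mean was that of batch 2 trimolters for 27 members, of batch 1 trimolters for 6 and of batch 2 tetramolters for 2. The descending order of batch 1 tetramolters, batch 2 trimolters, batch 1 trimolters and batch 2 tetramolters held for 23 members, 65.7% of them. It held for 960 of the 2399 genes at 5 CPM or more whose mean was highest in batch 1 tetramolters, or 40%, without the limit within batch 2 that the choice of members set.

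**Figure D1:**
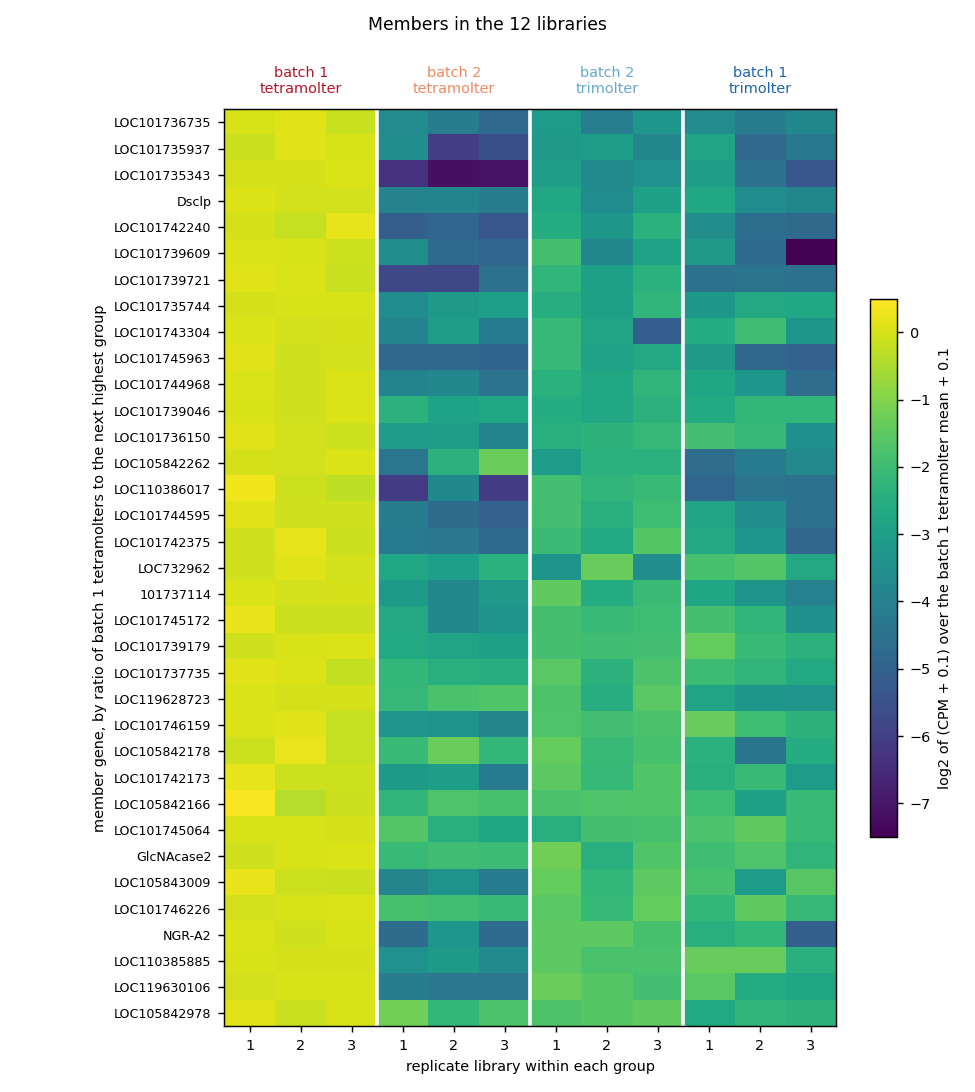
Colour shows each member's level in each of the 12 libraries as log2 of CPM plus 0.1 over the same sum for its batch 1 tetramolter mean, with members running down the page by their ratio to the next highest group. The 3 batch 1 tetramolter libraries stand near 0 throughout, and the darkest cells lie in batch 2 tetramolters for 29 of the 35 members by mean.

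Together the members took 0.580%, 0.484% and 0.486% of the counts of the batch 1 tetramolter libraries. In batch 2 tetramolters the share was 0.0723%, 0.0425% and 0.0474%, in batch 2 trimolters 0.133%, 0.107% and 0.122%, and in batch 1 trimolters 0.122%, 0.0950% and 0.0484%. One gene, LOC101745172, supplied 58.8% of the members' summed CPM in batch 1 tetramolters, and the 5 most abundant supplied 82%. Without LOC101745172 the share was 0.207% to 0.222% in batch 1 tetramolters, 0.0175% to 0.0247% in batch 2 tetramolters, 0.0363% to 0.0490% in batch 2 trimolters and 0.0212% to 0.0385% in batch 1 trimolters. The choice of members fixed a gap between batch 1 tetramolters and the other groups, with or without LOC101745172.

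**Figure D2:**
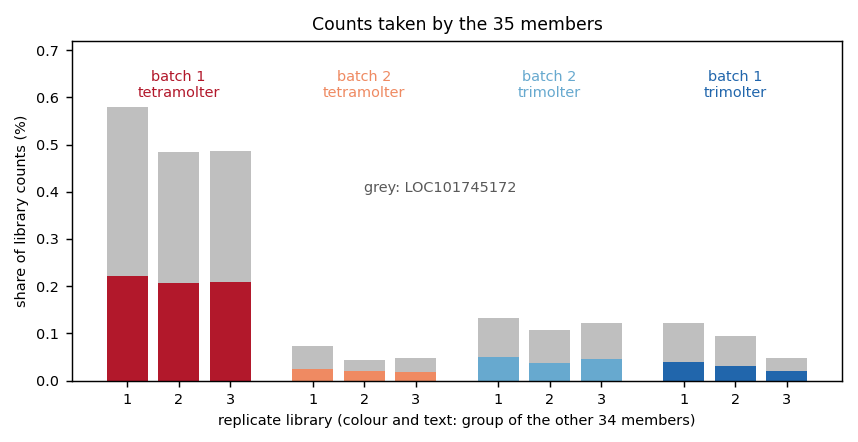
Bars give the percent of a library's counts taken by the 35 members, with LOC101745172 in grey and the other 34 members in the colour of their group. The 3 batch 1 tetramolter bars reach 0.484% to 0.580%, and the highest other bar, batch 2 trimolter 1, reaches 0.133%.

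GlcNAcase2 encodes a beta-N-acetylglucosaminidase, a kind of enzyme that cuts chitin fragments into single sugars. It had 40.5, 43.3 and 43.9 CPM in batch 1 tetramolters. The other values were 10.01, 10.9 and 10.5 CPM in batch 2 tetramolters, 17.8, 7.76 and 13.2 CPM in batch 2 trimolters and 10.8, 12.97 and 8.74 CPM in batch 1 trimolters. The 3 lower groups overlapped, and GlcNAcase2 was 3.29 times higher in batch 1 tetramolters than in the next group. Of the 4 N-acetylglucosaminidase genes, a family chosen after its values were seen, GlcNAcase2 was the 1 with its highest mean in batch 1 tetramolters. GlcNAcase1 averaged 38.7 CPM in batch 1 tetramolters, 50.2 CPM in batch 2 tetramolters, 51.6 CPM in batch 2 trimolters and 85.4 CPM in batch 1 trimolters. FDL, a further gene of the family, averaged 8.98, 12, 15.7 and 15.4 CPM in those groups in the same order.

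NGR-A2, also listed as BNGR-A2, encodes a neuropeptide receptor of the G protein-coupled kind. It had 7.94, 7.27 and 7.62 CPM in batch 1 tetramolters, 0.200, 0.687 and 0.197 CPM in batch 2 tetramolters, 2.60, 2.61 and 2.05 CPM in batch 2 trimolters and 1.28, 1.56 and 0.134 CPM in batch 1 trimolters. All 4 groups were apart except batch 2 tetramolters and batch 1 trimolters, which overlapped through batch 1 trimolter 3, with 2 counts. NGR-A2 was 21.1 times higher in batch 1 tetramolters than in batch 2 tetramolters and 3.15 times higher than in batch 2 trimolters. Among 21 NGR-A receptor genes with at least 1 CPM in a group, also chosen after their values were seen, 9 had their highest mean in batch 1 tetramolters. The share was 29.1% over all genes at that level that were not members. NGR-A3 was nearest to the threshold, at 2.83 times the next group.

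LOC101746226, listed as BmPyrexia, is named after a temperature-gated cation channel of the TRP family in Drosophila. It had 73.9, 77.6 and 79.1 CPM in batch 1 tetramolters, 21.3, 20.1 and 18.1 CPM in batch 2 tetramolters, 26.2, 17.4 and 29.3 CPM in batch 2 trimolters and 16.5, 28.1 and 16.8 CPM in batch 1 trimolters. The other 3 groups overlapped one another, and their means lay between 19.9 and 24.3 CPM. Against the next group the level in batch 1 tetramolters was 3.16 times higher.

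LOC732962, listed as UGT33D4, belongs to the UDP-glycosyltransferases, enzymes that add a sugar to small lipophilic compounds. It escaped the exclusion of that family because its symbol in the files is a LOC number. Its values were 7.94, 8.88 and 8.08 CPM in batch 1 tetramolters, 1.20, 0.962 and 1.51 CPM in batch 2 tetramolters, 0.714, 3.21 and 0.596 CPM in batch 2 trimolters and 2.29, 2.61 and 1.21 CPM in batch 1 trimolters. Batch 2 trimolter 2 stood above the other 2 libraries of its group. Of 4 UGT33 genes with at least 1 CPM in a group, 2 had their highest mean in batch 1 tetramolters, LOC732962 and its neighbour UGT33D5. UGT33D5 averaged 2.60 CPM in batch 1 tetramolters, 0.429 CPM in batch 2 tetramolters, 1.05 CPM in batch 2 trimolters and 1.18 CPM in batch 1 trimolters.

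Dsclp had 367, 339 and 337 CPM in batch 1 tetramolters, 23.1, 23.2 and 20.2 CPM in batch 2 tetramolters, 53.0, 28.6 and 46.0 CPM in batch 2 trimolters and 51.7, 28.1 and 24.5 CPM in batch 1 trimolters. It was 8.17 times higher in batch 1 tetramolters than in the next group, the largest such ratio among the named members. The trimolter groups overlapped, and every trimolter library lay above every batch 2 tetramolter library.

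**Figure D3:**
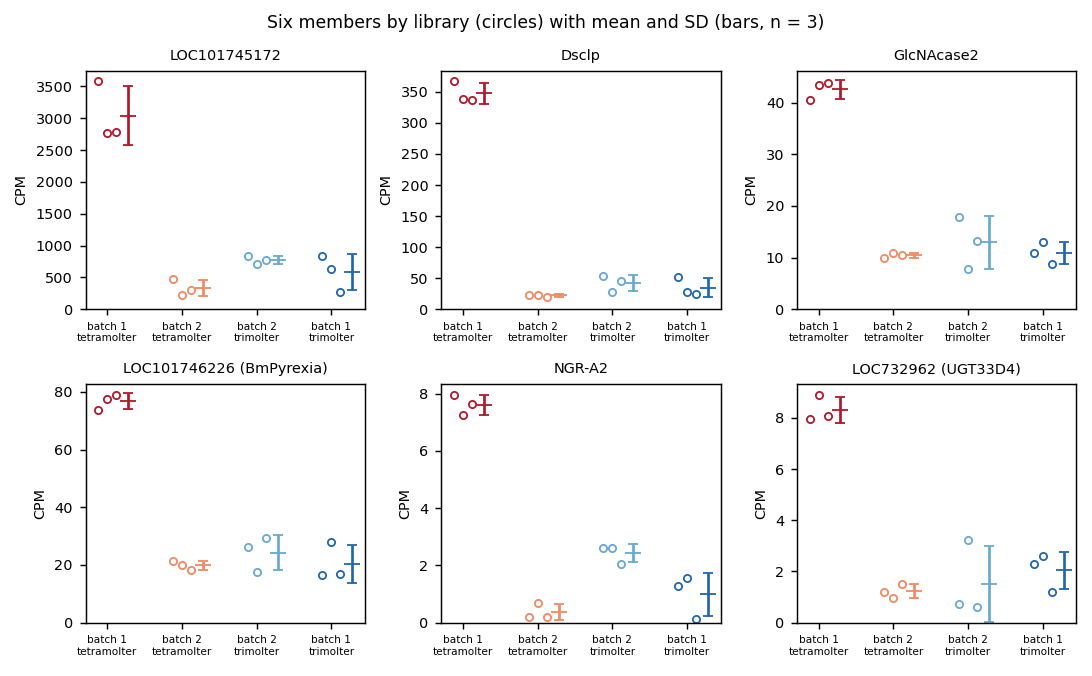
Circles give CPM in each library of the 4 groups for 6 members, and the bars beside them give the mean and SD of 3 libraries. In every panel the 3 batch 1 tetramolter circles lie above all others, for Dsclp at 337 to 367 CPM, while the spread among trimolters is wide for GlcNAcase2 and LOC732962.

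Per length, LOC101745172, a gene without a name, was the most abundant member. LOC101745172 averaged 4741 FPKM, a value scaled by gene length and library size, in batch 1 tetramolters, LOC101745963 225 FPKM, Dsclp 192 FPKM and LOC101745064 103 FPKM, and the lowest, LOC101735937, 3.68 FPKM. In CPM, LOC101745172 had 3578, 2762 and 2780 in batch 1 tetramolters, 477, 223 and 299 in batch 2 tetramolters, 840, 708 and 768 in batch 2 trimolters and 834, 632 and 272 in batch 1 trimolters. The trimolter groups overlapped, and the mean of LOC101745172 in batch 1 tetramolters was 3.94 times that of batch 2 trimolters.

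LOC101745963 had 465, 405 and 408 CPM in batch 1 tetramolters, 15.3, 15.1 and 13.9 CPM in batch 2 tetramolters, 96.0, 57.8 and 66.7 CPM in batch 2 trimolters and 47.5, 14.98 and 13.4 CPM in batch 1 trimolters. Batch 1 trimolter 1 stood above the other libraries of its group, which lay at the level of batch 2 tetramolters. LOC101744595 showed the same order, with 207, 182 and 182 CPM in batch 1 tetramolters, 10.7, 7.35 and 5.91 CPM in batch 2 tetramolters, 51.7, 34.5 and 47.5 CPM in batch 2 trimolters and 26.7, 16.02 and 8.33 CPM in batch 1 trimolters. In LOC101742173 and LOC101744968 the means also descended in that order, 83.4 and 68.3 CPM in batch 1 tetramolters, 24.5 and 12.5 CPM in batch 2 trimolters, 14.7 and 6.41 CPM in batch 1 trimolters, and 7.86 and 4.15 CPM in batch 2 tetramolters.

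LOC101745064 differed from these in that its 3 lower groups lay close together. It averaged 232 ± 1.03 CPM in batch 1 tetramolters, 50.3 ± 22 CPM in batch 2 tetramolters, 56.8 ± 12.6 CPM in batch 2 trimolters and 69.5 ± 15.7 CPM in batch 1 trimolters (SD, n = 3 each). The ratio of its batch 1 tetramolter mean to the next group was 3.34.

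The largest ratios to the next group belonged to LOC101736735 at 11.3, LOC101735937 at 10.9 and LOC101735343 at 10.5. LOC101735343 had 130, 132 and 136 CPM in batch 1 tetramolters, 1.53, 0.825 and 0.854 CPM in batch 2 tetramolters, 15.8, 10.03 and 12.1 CPM in batch 2 trimolters and 16.4, 5.89 and 3.23 CPM in batch 1 trimolters. The 124-fold ratio of its batch 1 to its batch 2 tetramolter mean was the largest of any member. LOC101736735 had 19.0, 20.5 and 16.4 CPM in batch 1 tetramolters, 1.401, 0.962 and 0.591 CPM in batch 2 tetramolters, 2.14, 1.00 and 1.79 CPM in batch 2 trimolters and 1.41, 0.969 and 1.28 CPM in batch 1 trimolters. Its 3 lower groups overlapped at 0.591 to 2.14 CPM. LOC101735937 had 9.74, 11.6 and 10.9 CPM in batch 1 tetramolters, and its other 9 libraries lay between 0.0687 and 1.41 CPM.

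LOC101742240 and LOC101739609 followed, at 6.66 and 6.27 times the next group. LOC101742240 averaged 17.0 ± 2.36 CPM in batch 1 tetramolters, 0.403 ± 0.0763 CPM in batch 2 tetramolters, 2.55 ± 0.783 CPM in batch 2 trimolters and 0.827 ± 0.451 CPM in batch 1 trimolters (SD, n = 3 each). LOC101739609 had 48.5, 45.9 and 42.4 CPM in batch 1 tetramolters, 3.80, 1.65 and 1.44 CPM in batch 2 tetramolters, 12.5, 3.28 and 6.09 CPM in batch 2 trimolters and 4.91, 1.64 and 0.134 CPM in batch 1 trimolters. It was even between batch 1 tetramolter libraries and spread widely within the trimolter groups. LOC101739721 was nearly absent from batch 2 tetramolters, with 2 counts there against 242 in batch 1 tetramolters. The ratio of those CPM sums was 118, with an exact 95% interval from 32.5 to 984 that covers counting error only.

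At the 3-fold threshold the choice separated genes with much the same values. LOC105842978, LOC119630106 and LOC110385885 were just inside, at 3.02, 3.07 and 3.10 times the next group, and LOC105841316, LOC101743834 and LOC101745812 just outside, at 2.99, 2.93 and 2.93. LOC101745812 averaged 1037 ± 11.9 CPM in batch 1 tetramolters, 271 ± 21.5 CPM in batch 2 tetramolters, 273 ± 53.9 CPM in batch 2 trimolters and 354 ± 107 CPM in batch 1 trimolters (SD, n = 3 each). A further 5 genes met every limit and were left out by their symbol family, the cuticle protein genes CPH27 and CPG19, the ribosomal protein genes RpS29 and RpL39, and GSTe4, a glutathione S-transferase gene. The mitochondrial gene ND4L was kept out by the limit within batch 2, with means of 13.5 CPM in batch 1 tetramolters, 0.248 CPM in batch 2 tetramolters, 0.0656 CPM in batch 2 trimolters and 4.44 CPM in batch 1 trimolters. The same level, ratio and order of libraries, with the families left out and no limit within batch 2, found 36 genes in batch 1 tetramolters, 58 in batch 2 tetramolters, 4 in batch 2 trimolters and 6 in batch 1 trimolters.

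The spread of the members between libraries differed by group, within limits set by the choice, which asked for high values in every batch 1 tetramolter library and lower ones elsewhere. The median coefficient of variation over 3 libraries was 6.77% in batch 1 tetramolters, 25.9% in batch 2 tetramolters, 25.6% in batch 2 trimolters and 42.1% in batch 1 trimolters. Over the 8102 genes with at least 5 CPM in batch 1 tetramolters it was 6.33%, 10.9%, 8.72% and 17.4% in the same order of groups, so batch 1 tetramolters were the most even for genes at large as well. Some members had few counts in the other groups, down to 2 over the batch 2 tetramolter libraries for LOC101739721. The part of counting noise in the members' larger coefficients was not tested. The coefficient was smaller in batch 1 tetramolters than in batch 1 trimolters for 34 of the 35 members, and for 85.3% of the genes at 5 CPM or more. Within the trimolter groups the members moved together by library. In batch 2 trimolters, replicate 1 was highest for 20 members, against 31.4% of genes at 5 CPM or more, and replicate 2 was lowest for 25, against 26% of those genes. In batch 1 trimolters, replicate 1 was highest for 21 members, against 34.5% of those genes, and replicate 3 was lowest for 24, against 25.6%.

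Between the 2 trimolter groups the choice of members set no limit directly, although its limit within batch 2 used the batch 2 trimolter mean. These groups were compared with the quasi-likelihood test of edgeR, in 1 model of all 12 libraries that shares the estimate of spread over the 4 groups. The p-values therefore draw on tetramolter libraries outside the comparison. Those of batch 1 were more even than the batch 1 trimolters, with median coefficients of variation of 6.33% and 17.4% over the 8102 genes above. Of the 35 members, 9 passed an adjusted p of 0.05, or 25.7%, and all 9 were higher in batch 2 trimolters. Of the 34 members whose trimolter counts alone passed the filter on low counts, 8 were called. Over all 10721 genes tested, 15.5% passed in either direction, 7.49% higher and 8.03% lower in batch 2 trimolters. The median log2 fold change of batch 2 over batch 1 trimolters was 0.59 over the members, with 30 of 35 fitted above 0, and -0.02 over all genes tested. Chosen with no limit within batch 2, an alternative added after the data were seen, the set had 36 genes, of which 9 were called higher and 1 lower. The lower one was ND4L, the gene that this limit removed, at 0.0656 CPM in batch 2 trimolters against 4.44 CPM in batch 1 trimolters (edgeR adjusted p = 0.000805), so the shared direction of the 9 depends in part on the choice. The number of calls also moved with single libraries. Without batch 2 trimolter 1 the count of members called was 4, without batch 2 trimolter 3 it was 3, without batch 1 trimolter 3 it was 3, and without batch 1 trimolter 1 it was 14. Over all genes tested it was 917, 784, 716 and 2594 without those libraries, in the same order, and 893 without batch 2 trimolter 2 and 2723 without batch 1 trimolter 2, against 1664 with all. In a fit to the 2 trimolter groups alone, 1 member, LOC110386017, and 135 genes passed.

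The largest difference was that of LOC110386017, with 1.75, 1.34 and 1.52 CPM in batch 2 trimolters and 0.135, 0.224 and 0.202 CPM in batch 1 trimolters. Its log2 fold change was 3.02 (SE 0.66, edgeR adjusted p = 0.0126). LOC101739721 had 1.04, 0.602 and 0.927 CPM in batch 2 trimolters and 0.135, 0.149 and 0.134 CPM in batch 1 trimolters, a log2 fold change of 2.58 (SE 0.54, edgeR adjusted p = 0.0103). It was the 1 member that entered the test through its level in batch 1 tetramolters, since its counts in trimolters alone fell below the filter on low counts. Both genes were low in all trimolter libraries, and their groups did not overlap. The call of LOC110386017 was lost without batch 1 trimolter 3 (edgeR adjusted p = 0.0507).

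LOC119628723 had 10.1, 5.89 and 11.6 CPM in batch 2 trimolters and 4.71, 3.43 and 3.29 CPM in batch 1 trimolters, a log2 fold change of 1.29 (SE 0.25, edgeR adjusted p = 0.00696). Its call stayed without any 1 of the 12 libraries. That of LOC101739721 did too, but rested on 2 to 16 counts a trimolter library and on a filter passed through batch 1 tetramolters. The calls of LOC101745963 (log2 fold change 1.56, SE 0.40, edgeR adjusted p = 0.0231) and of gene ID 101737114 (1.44, SE 0.37, adjusted p = 0.0229) were lost without batch 2 trimolter 1, batch 2 trimolter 3 or batch 1 trimolter 3, with adjusted p of at most 0.0925. LOC101744595 (1.41, SE 0.35, edgeR adjusted p = 0.0202) lost its call without batch 2 trimolter 1 or batch 2 trimolter 3, and LOC101742240 (1.63, SE 0.35, adjusted p = 0.0118) without batch 2 trimolter 3 or batch 1 trimolter 3. LOC101742375 (1.44, SE 0.44, edgeR adjusted p = 0.0477) stayed past the threshold without batch 1 trimolter 1 but not without any other single library, up to an adjusted p of 0.167. LOC105842978 (0.83, SE 0.22, edgeR adjusted p = 0.0283) lost it without any 1 batch 2 trimolter library, without batch 1 trimolter 1 or without batch 1 trimolter 3, up to 0.0923. None of these turned in direction.

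None of the members with a gene name or synonym passed. The log2 fold change of batch 2 over batch 1 trimolters was 1.31 for NGR-A2 (SE 0.55, edgeR adjusted p = 0.121), 0.32 for Dsclp (SE 0.28, adjusted p = 0.452), 0.28 for GlcNAcase2 (SE 0.25, adjusted p = 0.454), 0.28 for LOC101746226 (SE 0.23, adjusted p = 0.425) and -0.42 for LOC732962 (SE 0.53, adjusted p = 0.615). NGR-A2 passed without batch 1 trimolter 2 (1.79, edgeR adjusted p = 0.0489) and Dsclp without batch 1 trimolter 1 (0.73, adjusted p = 0.0332). LOC732962 was lower in batch 2 trimolters without batch 2 trimolter 2 (-1.60, edgeR adjusted p = 0.0321). LOC101745172, the most abundant member, had a log2 fold change of 0.43 (SE 0.36, edgeR adjusted p = 0.433).

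**Figure D4:**
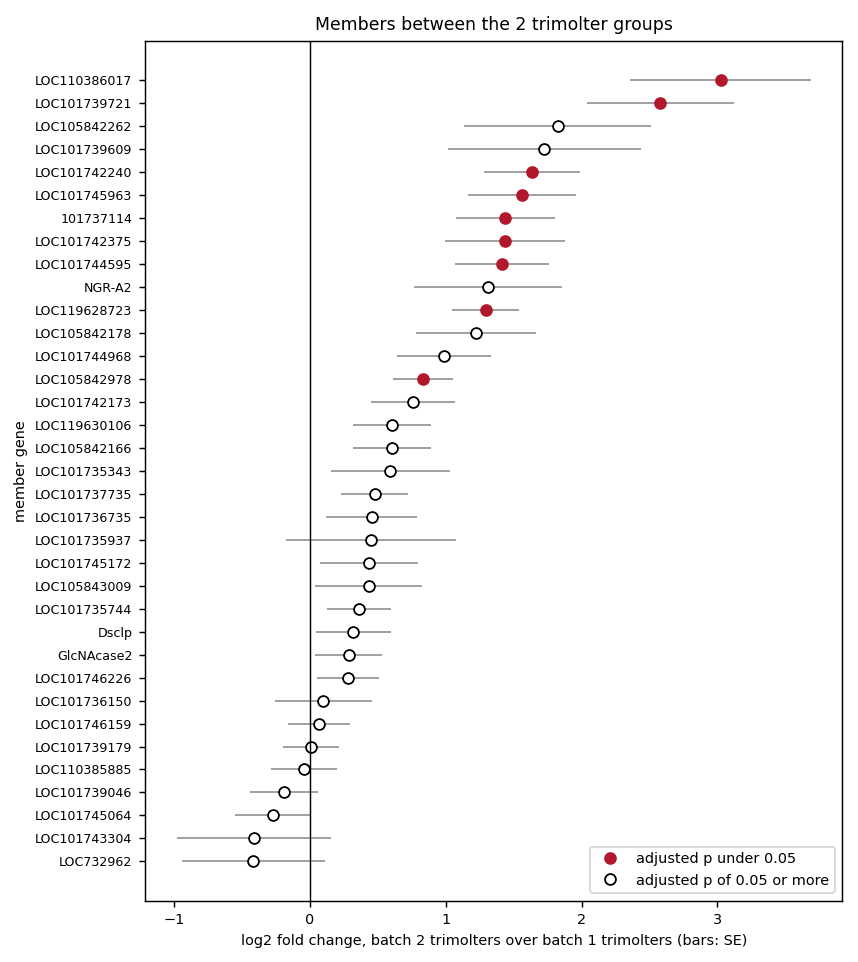
Points give each member's log2 fold change of batch 2 over batch 1 trimolters from edgeR and bars its SE, with the 9 members past an adjusted p of 0.05 filled. All 9 filled points lie right of 0, from 0.83 for LOC105842978 to 3.02 for LOC110386017, and 5 of the 26 open points lie left of 0.

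Haemocyte markers, 2 prophenoloxidase genes, were both higher in batch 2 trimolters (median log2 fold change 1.70), at 3349 to 4026 CPM in sum against 443 to 2200 CPM in batch 1 trimolters. They stood at 1273 to 1387 CPM in batch 1 tetramolters and 2132 to 2591 CPM in batch 2 tetramolters. Of the 8 muscle markers, 5 had their highest mean in batch 1 tetramolters, against 1 of the 6 midgut markers. Between trimolters, 1 muscle marker was higher and 0 were lower in batch 2. Midgut markers, 6 genes, had 0 higher and 1 lower, with sums of 1825 to 2139 CPM in batch 1 tetramolters, 4215 to 5682 CPM in batch 2 tetramolters, 3312 to 3771 CPM in batch 2 trimolters and 1720 to 4982 CPM in batch 1 trimolters. No member was in a marker list, and the part of these cell types in the members' differences was not tested.

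Some members lay beside genes that also had their highest mean in batch 1 tetramolters. Counted were 47 genes next to a member in the RefSeq gene order, with at least 1 CPM in a group and not members themselves. Of these, 20 had their highest mean in batch 1 tetramolters, or 42.6%. The share was 29.1% over all 10372 genes at that level that were not members, these 47 included. A mean at least 1.5 times the next group was found for 12 of them, or 25.5%, against 8.39%. Within 3 places of a member, 47 of 137 such genes had their highest mean in batch 1 tetramolters, 22 of them by at least 1.5 times. Of the 12 genes next to a member, some were not independent of the choice or of their member. Of these 12, InR, LOC119630543 and LOC101741829 overlapped their member, and reads of overlapping genes cannot be told apart here. LOC110385818, LOC101742554 and LOC105842176 came from a single row of long noncoding RNA genes, where sharing of reads was not tested. CPG19 met every limit of the choice and was left out by its symbol. LOC101745172 lay next to CPG19, a cuticle protein gene that also had its highest mean in batch 1 tetramolters. CPG19 averaged 468 ± 64.9 CPM in batch 1 tetramolters, 55.0 ± 20.4 CPM in batch 2 tetramolters, 125 ± 29.5 CPM in batch 2 trimolters and 38.9 ± 17 CPM in batch 1 trimolters (SD, n = 3 each). Its lowest mean was in batch 1 trimolters, that of LOC101745172 in batch 2 tetramolters. LOC119628723 and LOC105842978 had 1 gene between them, and both passed the test between trimolters. Their direction was not particular to them. LOC119628724 in the same stretch averaged 78.3 CPM in batch 2 and 25.6 CPM in batch 1 trimolters, while LOC101741865, further along, averaged 47.4 and 69.4 CPM. Sharing of reads in this stretch was not tested. LOC101742375 and LOC101742240, with 9 genes between them, also both passed.

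The long noncoding RNA genes LOC105842166 and LOC105842178 stood in a row of 10 such genes. Of the other 8, 3 were below 1 CPM and 5 had their highest mean in batch 1 tetramolters too. The closest to the threshold, LOC101742648, averaged 37.7 CPM in batch 1 tetramolters, 10.1 CPM in batch 2 tetramolters, 12.5 CPM in batch 2 trimolters and 13.6 CPM in batch 1 trimolters. LOC105842176 averaged 40.1, 14.7, 15 and 19.5 CPM in the same groups. Whether reads were shared between near-identical copies in this row was not tested, and the 5 genes before it had lower means in batch 1 tetramolters than in another group.

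**Figure D5:**
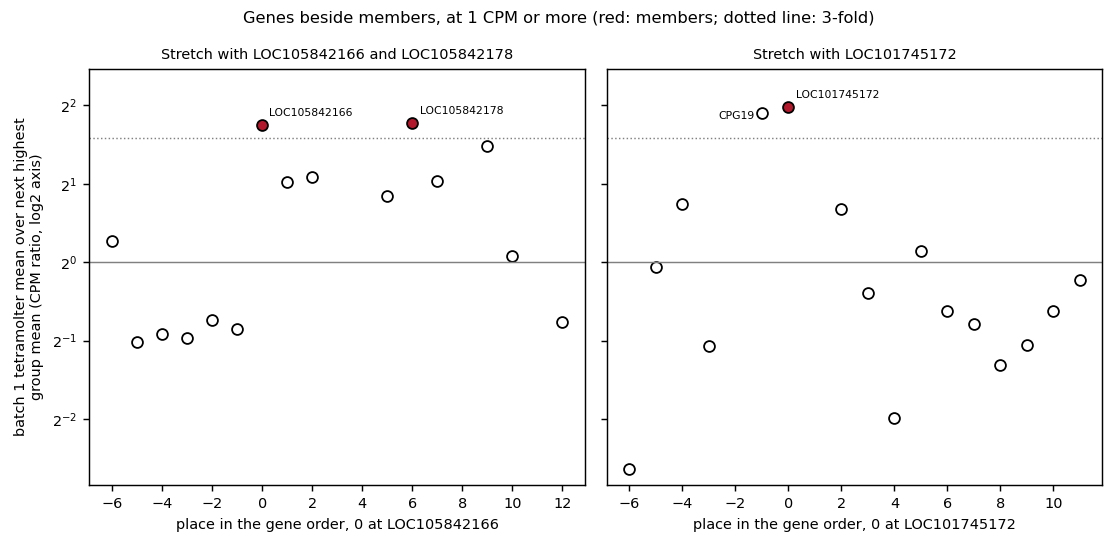
Points give the ratio of the batch 1 tetramolter mean CPM to the highest other group mean, on a log2 axis, for genes at 1 CPM or more by their place in the RefSeq gene order, with members in red. Around LOC105842166 and LOC105842178 the row of long noncoding RNAs lies above 1, while around LOC101745172 the gene CPG19 is the 1 that reaches its level.

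Other members overlapped genes in the RefSeq table, and since no source used here says whether counting used strand, reads of overlapping genes cannot be told apart. Of the 34 placed members, 12 overlapped a gene with at least 1 CPM and 22 did not. The overlapping genes of 4 members also had their highest mean in batch 1 tetramolters. LOC110385885 overlapped InR, the insulin receptor gene, which averaged 227 ± 3.61 CPM in batch 1 tetramolters, 45.7 ± 3.27 CPM in batch 2 tetramolters, 148 ± 15.3 CPM in batch 2 trimolters and 107 ± 35.1 CPM in batch 1 trimolters. LOC110385885 itself averaged 88.5 ± 0.827, 8.27 ± 1.62, 27.2 ± 3.31 and 28.5 ± 10.3 CPM in the same groups (SD, n = 3 each). LOC110386017 overlapped LOC101741829, which averaged 2.45, 0.601, 0.769 and 0.301 CPM in those groups. The long noncoding RNA gene LOC101737735 spans the genes of 6 microRNAs, among them Mir2b, Mir13a and Mir71, and had 16.1, 15.5 and 12.5 CPM in batch 1 tetramolters, 3.14, 2.54 and 2.50 CPM in batch 2 tetramolters, 4.93, 2.81 and 4.31 CPM in batch 2 trimolters and 3.57, 2.98 and 2.28 CPM in batch 1 trimolters. These libraries of poly(A) RNA do not measure mature microRNAs.

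Gene lists for the hormones of the molt and for related functions held no member. Of 7 ecdysone response genes, among them EcR, which encodes the ecdysteroid receptor, 2 had their highest mean in batch 1 tetramolters, and 0 were higher and 1 lower in batch 2 than in batch 1 trimolters (edgeR, adjusted p under 0.05). EcR averaged 26.1 CPM in batch 1 tetramolters, 30.6 CPM in batch 2 tetramolters, 23.7 CPM in batch 2 trimolters and 26.6 CPM in batch 1 trimolters. Of 11 genes of juvenile hormone response and turnover, 2 had their highest mean in batch 1 tetramolters, and 2 were higher and 0 lower in batch 2 trimolters. Kr-h1, a transcription factor gene induced by juvenile hormone, averaged 66.3, 60.6, 51.2 and 44.1 CPM in the same order of groups. Of 8 melanin and tanning genes, 3 had their highest mean in batch 1 tetramolters, with 2 higher and 0 lower in batch 2 trimolters. Of 17 chemosensation genes at 1 CPM or more, 5 had their highest mean there, and of 21 tested between trimolters 2 were higher and 0 lower in batch 2. Of 17 serine protease inhibitor genes at that level, 6 had their highest mean there, with 4 higher and 2 lower in batch 2 trimolters. Of the 4 storage protein and lipoprotein genes at that level, which include all 4 such fat body markers, 1 had its highest mean in batch 1 tetramolters, and 1 was higher and 0 lower in batch 2 trimolters. Of the markers of nervous system and eye (2 genes tested), trachea (2) and silk gland (2), 0 passed the test between trimolters in either direction. Beside all these counts, 7.49% of all genes tested were higher and 8.03% lower in batch 2 trimolters. Of all genes at 1 CPM or more that were not members, 29.1% had their highest mean in batch 1 tetramolters.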

How the data were processed

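Poly(A) RNA of head and thorax was sequenced in 12 paired-end libraries. Per the submitters' processing notes the tools included HISAT2 2.2.1 (2.0.5 per the labels' protocols), StringTie 2.2.1, Trimmomatic 0.39 and DESeq2 1.38.3. The sources used here name no genome build, annotation, counting program or strand setting. The authors deposited whole-number counts per gene and a table of FPKM values scaled by length and depth, in which the column of batch 1 trimolter 2 was empty. Of 17583 rows, 511 numbered by the authors as new loci were left out.

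CPM were computed from column totals. Counts were tested with edgeR 4.0.16 (R 4.3.3; TMM, filterByExpr by group, quasi-likelihood F-test, 1 model of 12 libraries, 2-sided, Benjamini-Hochberg over 10721 genes, threshold 0.05), and SE is the log2 fold change over the square root of F. The step was also run on data simulated with the same spread of a gene in all groups. That run does not show how the test behaves where groups differ in spread, as these did. Alternatives were DESeq2 1.42.0, other scalings, filters and thresholds, a replicate block and leaving out each library. RefSeq (ASM3026992v2) gave names, gene types, gene order and overlaps, and 14945 gene IDs matched. Whether the counts were made on that build is not known. The members, lists and tests were chosen with earlier results of these data known. Named genes were members with a symbol, the 10 other members highest in CPM, the 5 with the largest ratios and 3 on each side of the threshold; other genes were named after their values were seen.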

Additional observations from a re-analysis of the deposited data

How the results depend on the processing

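At 2-fold, 4-fold and 3-fold with a minimum of 1 CPM, the choice found 162, 18 and 67 genes in place of 35. Other scalings (TMM factors, DESeq2 size factors or FPKM) and no limit within batch 2 found 36 to 40, with all 35 members among them, and leaving out 1 library found 32 to 42, with at least 30 members shared. The members' share of batch 1 tetramolters was 0.517% of counts but 0.758% of summed FPKM, and 0.485% to 0.533% without 1 library. Between trimolters, a fit to those 2 groups alone called 1 member (1 higher) and 135 genes in place of 9 (9 higher) and 1664, and the cause was not tested. Leaving out 1 library gave 3 to 14 members called (3 to 14 higher) and 716 to 2723 genes. GlcNAcase2 had a log2 fold change of 0.28 with all libraries and of -0.040 (without batch 2 trimolter 1) to 0.54 (without batch 2 trimolter 2) without 1 of them. The other scaling, filters and the DESeq2 Wald test called 8 to 12 members, and the Wald test 2239 genes. With the replicate number as a block, edgeR called 8 members and 1626 genes, and LOC101742375 was lost (adjusted p = 0.0588). The correlations of deviations between same-numbered trimolter libraries were 0.04, 0.02 and -0.02. They showed no shared shift but cannot tell whether these libraries were paired. Of 250 single-gene values under an alternative, 210 kept their direction and side of the threshold, 36 lost a call, 3 gained one and 1 turned. These values include named members with no call to lose. Of the 9 called members, 1 (LOC101739721) kept its call in every alternative whose filter it passed, and 2 kept it without any 1 library. The precision of each value is limited by 3 libraries a group and, for the lowest members, by counts of 2 to 27 a trimolter library.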

Other observations

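Of 6 genes on 2 short lists, 3 (Time, yellow-11 and yellow-12) had the members' most frequent order of groups below the 3-fold threshold, and 3 (cry1, cry2 and yellow-f) had another order. That order was not particular to these lists. The muscle markers TpnI, MLC-2 and Mf had it, as did serpin-1, serpin-3 and serpin-12, while other genes of those lists did not. Time, a gene of the clock list, averaged 185 ± 12.6 CPM in batch 1 tetramolters, 19.8 ± 2.30 CPM in batch 2 tetramolters, 76.7 ± 2.11 CPM in batch 2 trimolters and 33.3 ± 9.47 CPM in batch 1 trimolters (SD, n = 3 each). The other 2 genes of that list, cry1 and cry2, had their highest mean in batch 1 tetramolters as well, at 1.10 and 1.05 times the next group, and between trimolters 1 of the 3 genes was higher and 1 lower in batch 2. Of the 3 genes of the yellow family, relatives of a gene of insect pigmentation, yellow-11 averaged 37.0 ± 1.83 CPM in batch 1 tetramolters, 4.33 ± 2.24 CPM in batch 2 tetramolters, 21.3 ± 6.73 CPM in batch 2 trimolters and 8.86 ± 4.13 CPM in batch 1 trimolters. For yellow-12 the means were 57.8, 16.4, 47.4 and 24.0 CPM in the same order, and yellow-f had its lowest mean, 10.9 CPM, in batch 1 tetramolters. Between trimolters 2 of the 3 yellow genes were higher and 0 lower in batch 2 (edgeR, adjusted p under 0.05). Among the receptor and transferase families, 4 of 22 NGR-A genes, 1 of 5 UGT33 genes and 0 of 4 N-acetylglucosaminidase genes tested were higher in batch 2 trimolters, and 0 of each were lower. Over all genes tested, 7.49% were higher and 8.03% lower, and these families were chosen after their values were seen.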
